A study of Homo sapiens with 6 samples.

Results

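The genes described here are 37 genes of protein folding, glycoprotein quality control, degradation and stress sensing in the endoplasmic reticulum (ER). They were chosen by name, with earlier results of these data known, and all were found among the 22481 genes of the count table. They fall into 15 folding genes, 4 genes of glycosylation control, 12 degradation genes and 6 genes of the unfolded protein sensors. RNA was read from 143B cells, an established human osteosarcoma line, in 6 libraries of 1 culture well each. The wells belonged to 1 plate, and after 24 h of growth 3 wells received celastrol for 24 h while 3 control wells grew on for the same time without it. Celastrol is a triterpene from the plant Tripterygium wilfordii. Its dose, and whether control wells received a vehicle, are not stated in the sources used here. Because all replicates are wells of 1 plate of 1 line, a p-value here speaks only of the spread among these wells, part of which may be technical.

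Secreted and membrane proteins enter the ER through the SEC61 channel and fold there with the help of chaperones such as BiP and GRP94 and of enzymes that form and shuffle disulfide bonds. Glycoproteins pass through a cycle in which the lectins calnexin and calreticulin hold them while UGGT1 tests whether they are folded, and proteins that stay misfolded are pulled back through a membrane ubiquitin ligase complex and broken down by the proteasome, a route called ER-associated degradation. When unfolded proteins build up, the sensors IRE1, PERK and ATF6 start the unfolded protein response, which raises folding and degradation genes. Cells that secrete much matrix, such as osteoblasts and tumours of that lineage, lean heavily on this machinery.

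ATF6 and XBP1 act in part through a promoter sequence named the ER stress response element (ERSE), which is shown because it ties together many of these genes whatever their response. Promoters from RefSeq (GRCh38.p14), from 250 bases before to 50 bases after each start, were found for 34 of the 37 genes. ERSE was searched on both strands as CCAAT and CCACG with 9 bases of any kind between them, and it was present in 8 of these 34 genes, against 0.0916% of the 27305 genes with a promoter. ERSE-II, searched on both strands as ATTGG and CCACG with 1 base of any kind between them, was present in 3 of the 34 genes, against 0.0696% of all genes. Read from the other strand, ERSE runs from CGTGG to ATTGG and ERSE-II from CGTGG to CCAAT. No promoter held both motifs among the 34 genes. A match is a description of letters in this window and not of a bound site.

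The 250 bases before the start of 3 genes are printed in the gene's own direction, with ERSE in capitals. They are HSPA5, which encodes BiP (chr9:125241344-125241593, minus strand), HSP90B1, which encodes GRP94 (chr12:103930160-103930409, plus strand), and CANX, which encodes calnexin (chr5:179698679-179698928, plus strand, 1 of several annotated starts). HSP90B1 holds 2 ERSE matches, the second on the other strand.
HSPA5: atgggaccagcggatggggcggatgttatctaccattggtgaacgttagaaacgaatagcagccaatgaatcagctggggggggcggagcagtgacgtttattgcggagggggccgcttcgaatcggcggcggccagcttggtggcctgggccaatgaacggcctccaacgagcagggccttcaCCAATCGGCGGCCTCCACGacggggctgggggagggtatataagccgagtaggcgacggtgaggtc
HSP90B1: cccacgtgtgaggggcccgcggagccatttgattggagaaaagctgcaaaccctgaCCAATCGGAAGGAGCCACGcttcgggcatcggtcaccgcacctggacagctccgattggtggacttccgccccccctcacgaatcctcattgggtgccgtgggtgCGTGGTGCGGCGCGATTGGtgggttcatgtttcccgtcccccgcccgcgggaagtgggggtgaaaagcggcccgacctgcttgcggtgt
CANX: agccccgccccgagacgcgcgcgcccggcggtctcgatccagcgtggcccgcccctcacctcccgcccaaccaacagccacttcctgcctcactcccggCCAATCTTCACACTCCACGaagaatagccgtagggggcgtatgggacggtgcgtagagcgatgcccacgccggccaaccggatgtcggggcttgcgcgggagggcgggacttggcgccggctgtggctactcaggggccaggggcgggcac

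The other elements are printed with up to 10 flanking bases, in the gene's own direction, the match in capitals. ERSE lay at chr2:10812853-10812871, minus strand, 86 bases before the start, in PDIA6 (an inner one of its annotated starts), and at chr22:28800603-28800621, minus strand, 52 bases before the start, in XBP1. It lay on the other strand in CALR (chr19:12938384-12938402, plus strand, 225 bases before the start), CRELD2 (chr22:49918554-49918572, plus strand, 80 bases before the start) and ERO1B (chr1:236282183-236282201, minus strand, 243 bases before the start).
PDIA6: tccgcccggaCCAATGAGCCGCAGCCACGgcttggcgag
XBP1: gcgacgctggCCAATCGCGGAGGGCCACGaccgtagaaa
CALR: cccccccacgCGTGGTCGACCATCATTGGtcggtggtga
CRELD2: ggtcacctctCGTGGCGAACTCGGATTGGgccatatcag
ERO1B: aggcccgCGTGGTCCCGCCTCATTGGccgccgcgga
ERSE-II lay at chr16:56932025-56932035, plus strand, 117 bases before the start, in HERPUD1, and on the other strand at chr22:21642114-21642124, plus strand, 188 bases before the start, in SDF2L1. HYOU1 held 2 matches on the other strand, of which the one shown is at chr11:119057274-119057284, minus strand, 79 bases before the start.
HERPUD1: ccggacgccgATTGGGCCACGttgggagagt
SDF2L1: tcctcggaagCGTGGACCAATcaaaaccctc
HYOU1: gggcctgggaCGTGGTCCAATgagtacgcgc

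Library totals ran from 38.4 to 39.5 M counts, and counts per M counts of the library (CPM) are used below to compare libraries. The limit of 3 counts that an unread gene still allows equals 0.076 to 0.0781 CPM. The groups lay apart on the first principal component (62.6% of the variance), where control replicate 1 and celastrol replicate 2 were nearest the other group. Of 7 mesenchymal and bone markers, VIM ran from 2499 to 3559 CPM and SPARC from 304 to 414 CPM, RUNX2 was present at 17.3 to 35.8 CPM, SPP1 at 29.9 to 44.4 CPM, COL1A1 at 7.19 to 14.8 CPM and ALPL at 0.964 to 3.53 CPM, and COL1A2 was at or near 0 (at most 0.0507 CPM). Markers of immune cells (PTPRC and CD14, at most 0.633 CPM) and endothelium (PECAM1, VWF and CDH5, at most 0.354 CPM) were near 0. Of the epithelial markers, KRT18 was at 899 to 977 CPM and EPCAM at 5.71 to 7.14 CPM, while KRT19 and CDH1 were at most 0.0519 and 0.026 CPM. The summed mesenchymal list was lower with celastrol (2939 to 3012 CPM, against 3730 to 3951 CPM in controls), a sum made up mostly of VIM. Of its members VIM, RUNX2 and ALPL fell, COL1A1 rose (log2 fold change 0.66, adjusted p = 0.00209), and SPP1 and SPARC were not called. The part of these markers in the results below was not tested.

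Of the 15 folding genes, 9 fell and 2 rose. Of the 4 genes of glycosylation control, 2 rose and 0 fell, and of the 12 degradation genes, 4 rose and 0 fell. None of the 6 sensor genes was called. Calls are adjusted p-values under 0.05 from edgeR's quasi-likelihood test, fitted and adjusted (Benjamini-Hochberg) over all 15387 genes that passed the filter on low counts, which all 37 genes did. Over all these genes 48.4% were called, 23.6% higher and 24.8% lower, so that the 17 calls among 37 genes (45.9%) are close to the background. Within the folding genes 60% were called lower and 13.3% higher. These are counts over related genes of 1 experiment and no test of the classes was made.

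**Figure D1:**
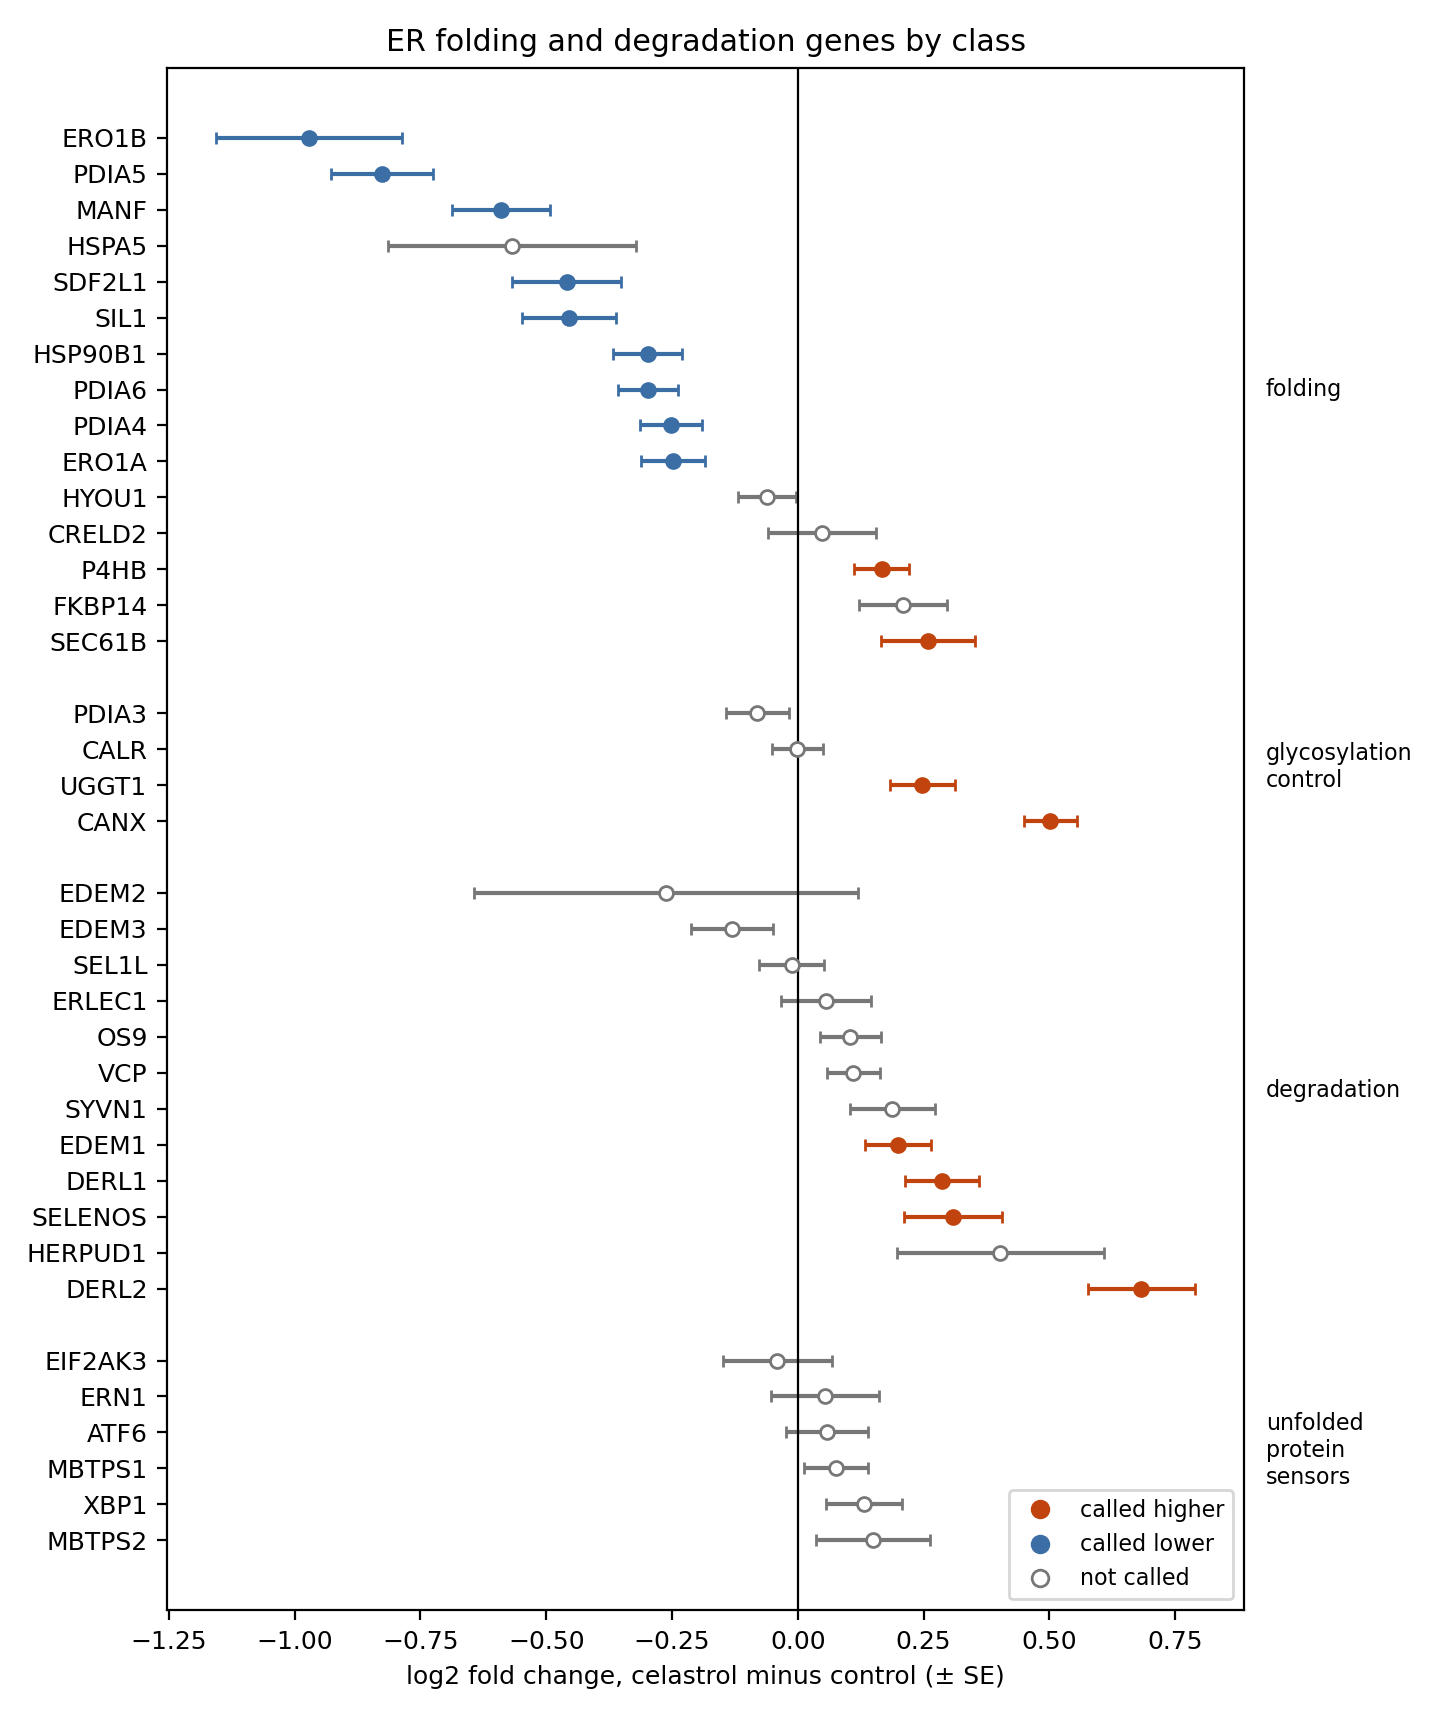
The log2 fold change of celastrol against control (x axis, whiskers are the SE) is drawn for each of the 37 genes, grouped by class, with filled points for called genes and open points for the others. Folding genes lie mostly left of 0, from -0.97 for ERO1B, while degradation genes reach 0.68 for DERL2 and all sensor genes lie between -0.041 and 0.15.

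The zeros did not rest on the tool or the adjustment in these libraries. For genes of glycosylation control and degradation lower, and for sensor genes in either direction, edgeR gave 0 genes at an unadjusted p under 0.05, and DESeq2 and limma-voom called 0. Median log2 fold changes were -0.30 for folding, 0.12 for glycosylation control, 0.15 for degradation and 0.067 for the sensors, against -0.00024 over all genes tested. The changes were modest in size. A change of at least 1.5-fold with a call was found for 3 genes lower (ERO1B, PDIA5 and MANF) and 1 gene higher (DERL2), where 12.3% and 8.64% of all genes tested met the same rule. By limma on log2(FPKM + 1), FPKM being fragments per kilobase of gene and M fragments, 13 of the 37 genes and 8 of the 12 degradation genes were higher, and 9 of the 37 lower. Over all 15387 genes the same fit called 4007 higher and 3257 lower, against 3634 and 3815 in the main analysis. Without celastrol replicate 2, 5 of the 37 genes were higher, beside 3296 of the 15770 genes tested there.

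The library values show how clear the separation was. The celastrol and control libraries did not overlap for 11 genes on the lower side and 12 on the higher side, and overlapped for 14. Over all genes tested the groups did not overlap in 56.9%, with 28.6% on the lower side and 28.4% on the higher side. Of the folding genes, 10 were lower in every celastrol library than in any control library. The spread within a group was smaller with celastrol, with a median coefficient of variation of 4.76% over the 37 genes, than in controls (7.84%). Control replicate 1 was the lowest control library for 22 of the 37 genes and control replicate 3 the highest for 20. Spread and library order were not computed over all genes tested, so they cannot be called particular to these 37 genes.

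**Figure D2:**
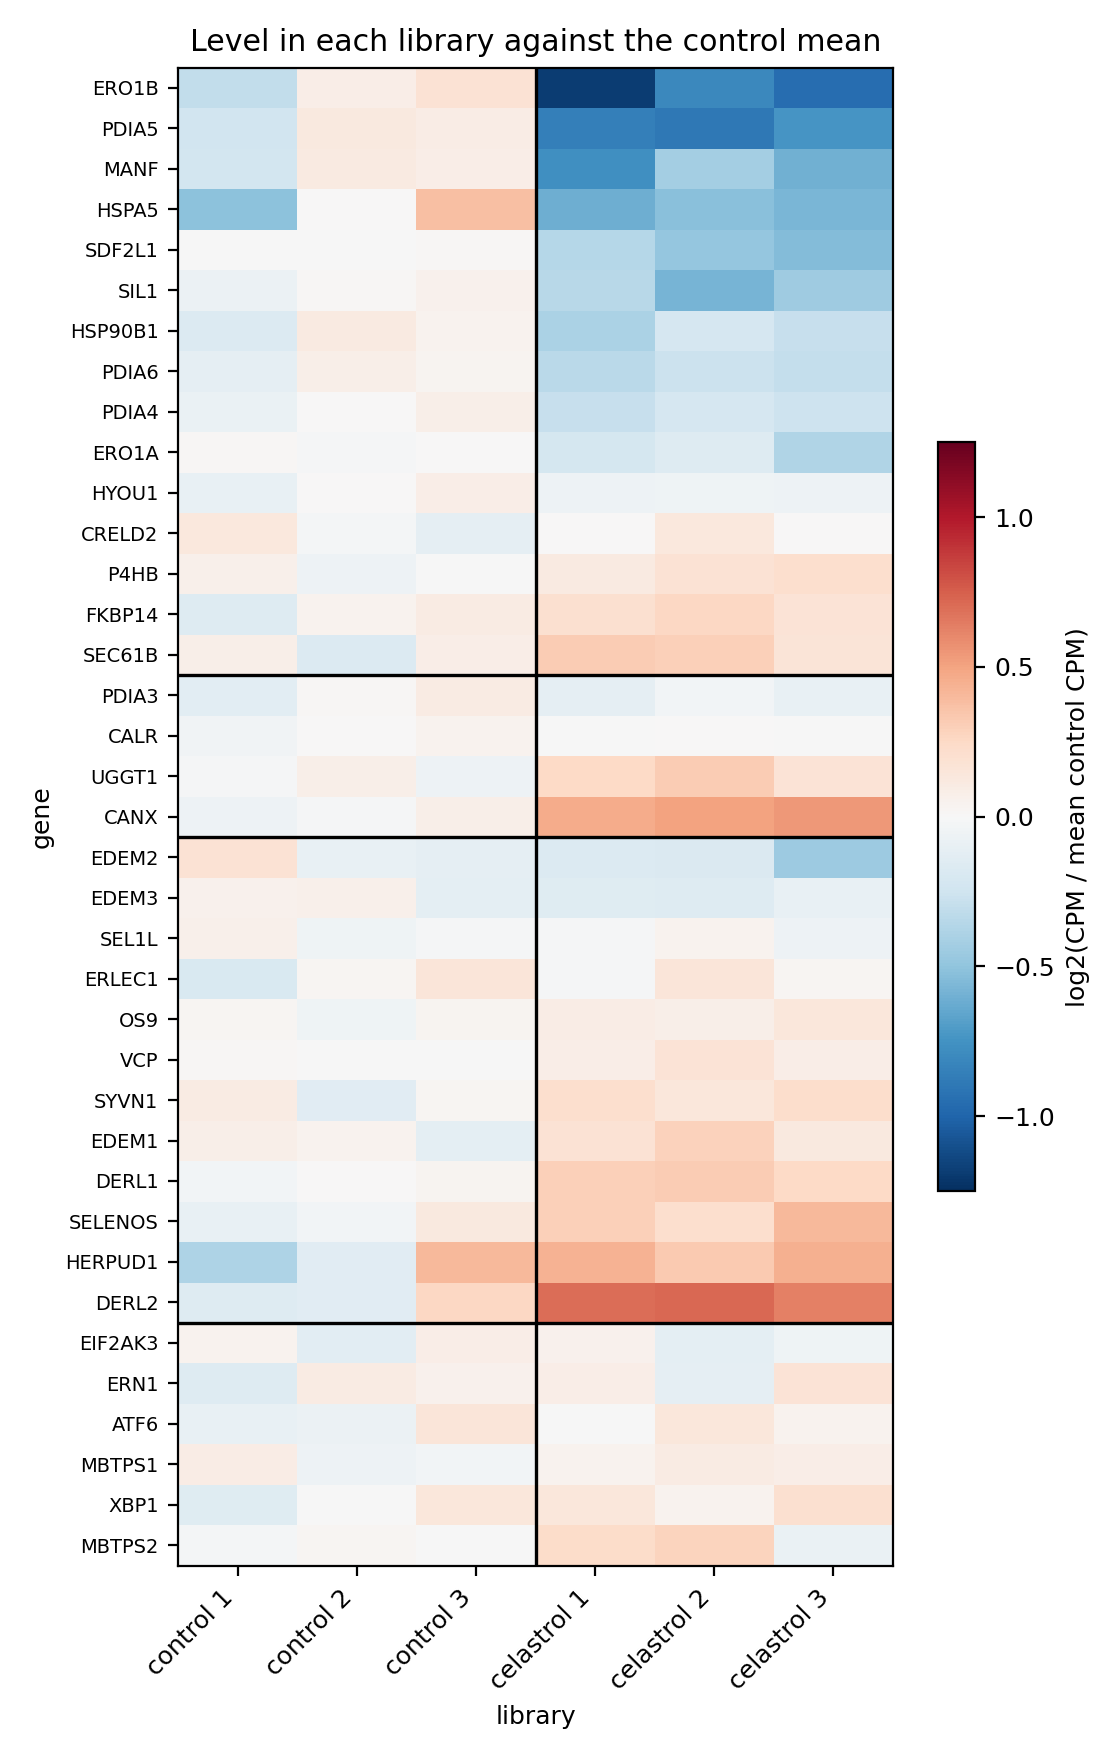
Each cell gives the log2 ratio of a gene's CPM in 1 library (columns) to its mean in the 3 control libraries, with the 37 genes in rows and horizontal lines between the classes, blue for lower and red for higher. The block of folding genes from ERO1B to ERO1A is blue in all 3 celastrol libraries, HSPA5 is also blue in control replicate 1, and CANX and DERL2 are red in all 3 celastrol libraries.

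Transcript levels per gene length put the chaperones on top. In controls CALR, the calcium-binding lectin calreticulin, led with 380.0 ± 8.91 FPKM (SD, n = 3), followed by HSP90B1 at 343 ± 33.1 FPKM, HSPA5 at 230.1 ± 67.1 FPKM and P4HB at 211 ± 9.58 FPKM. The control libraries of CALR and HSP90B1 overlapped narrowly, those of HSP90B1 all lay above those of HSPA5, and those of HSPA5 and P4HB overlapped. At the other end stood ERN1 at 2.23 ± 0.208 FPKM, ERO1B at 0.943 ± 0.157 FPKM and EDEM2 at 0.601 ± 0.0717 FPKM. In the order of the 37 genes, CANX moved with celastrol from rank 8 to 4 at 163 ± 3.21 FPKM and HERPUD1 from rank 20 to 16. Downward moves of 4 or 5 ranks were those of SIL1 (22 to 27) and PDIA5 (19 to 23). HSPA5 went from rank 3 to 5 at 160.0 ± 4.61 FPKM. The 5 highest genes held 54.3% of the summed FPKM of the 37 genes in controls and 53.1% with celastrol.

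**Figure D3:**
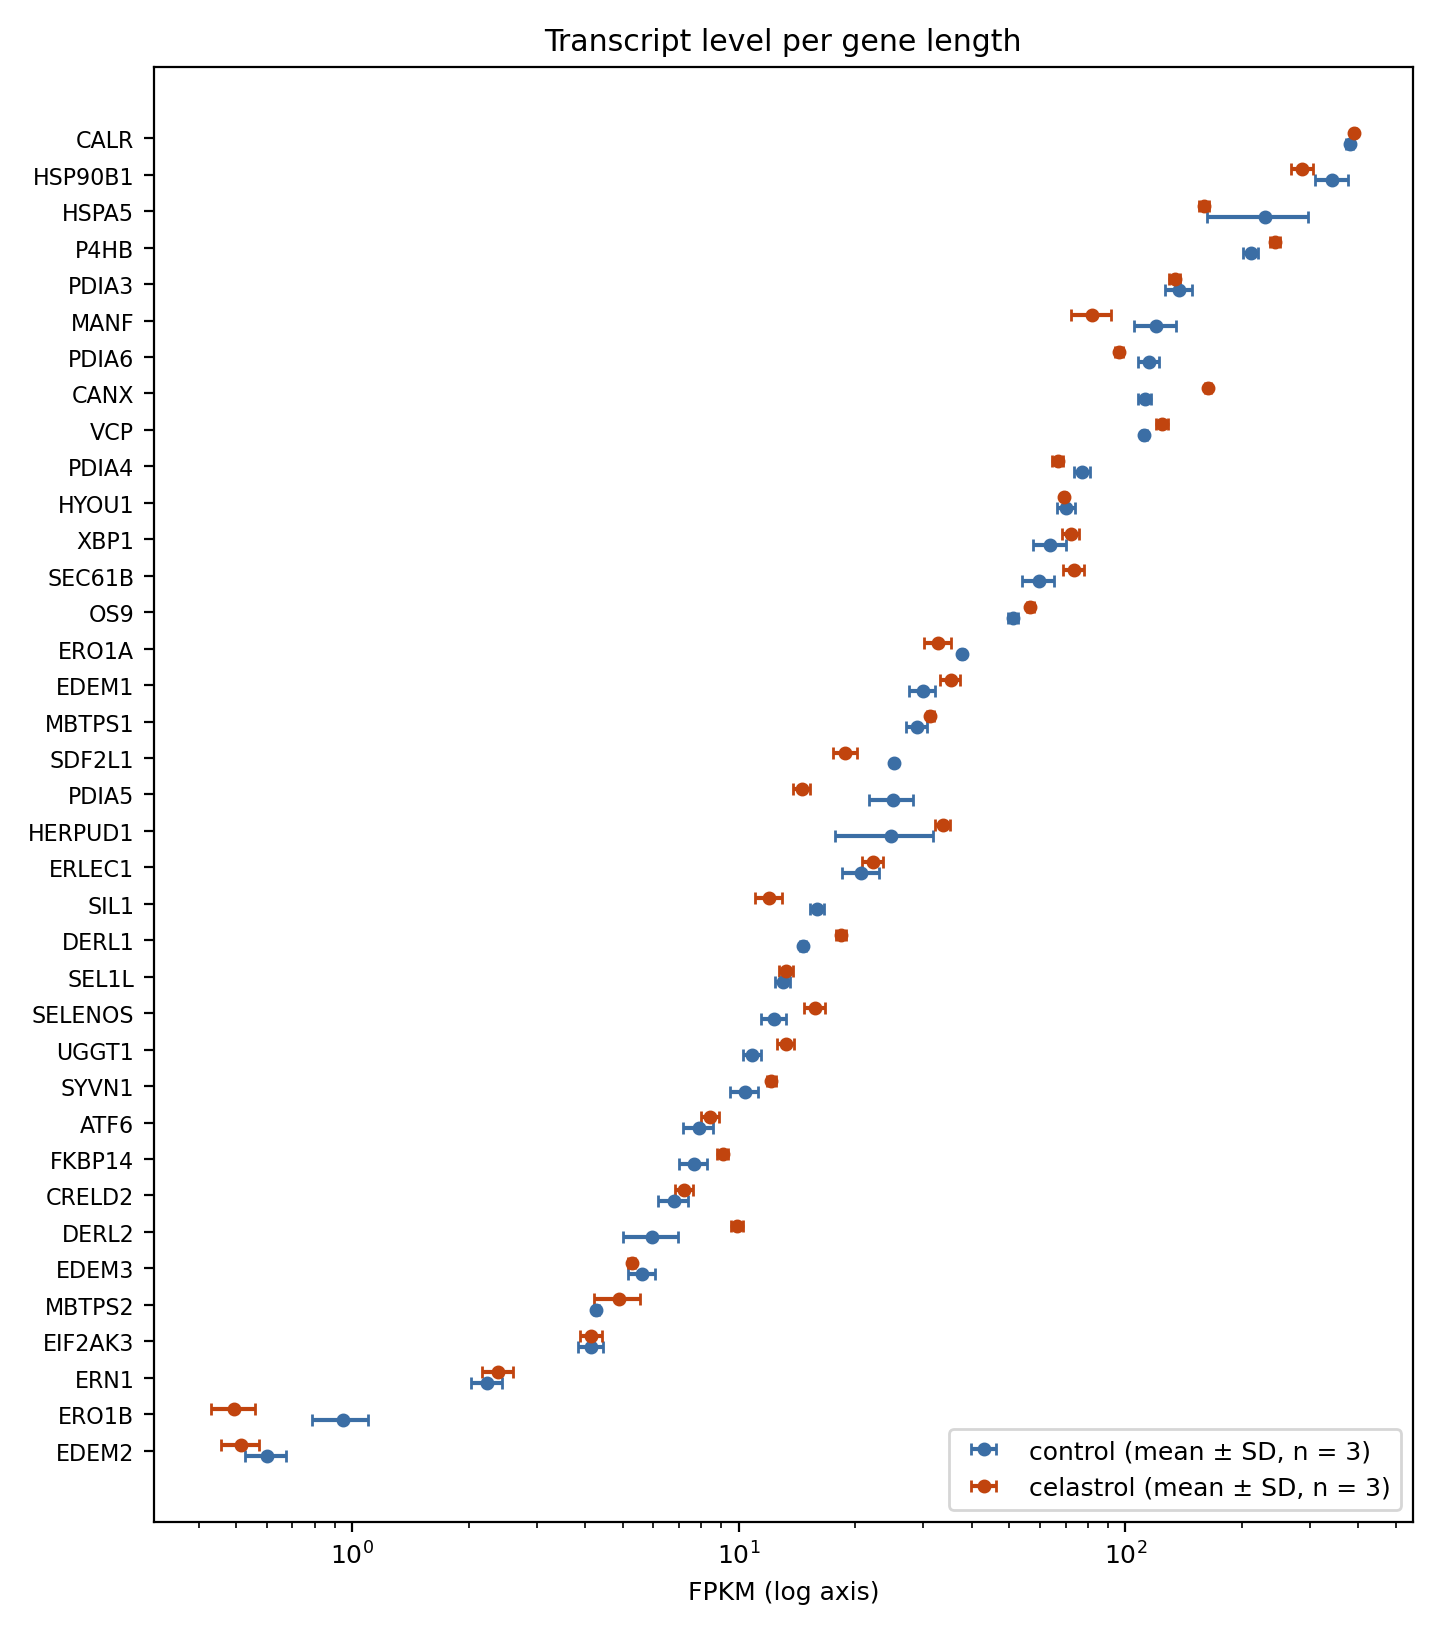
The mean FPKM (x axis, log scale, whiskers are the SD over 3 libraries) of each of the 37 genes is drawn for control and celastrol wells, ordered by the control level. Levels span from under 1 FPKM for ERO1B and EDEM2 to over 300 FPKM for CALR, and the shift between groups is small beside the range between genes.

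Of the main chaperones of the ER lumen, HSP90B1 fell and HSPA5 did not pass the test. HSP90B1, which encodes GRP94, the ER form of HSP90 (NCBI gene 7184, chromosome 12, 103930410 to 103947926), stood at 859.6, 1042 and 1000.1 CPM in control replicates 1, 2 and 3. In celastrol replicates 1, 2 and 3 it stood at 734, 834 and 792 CPM. Every celastrol library was below every control library, and the gene fell by 18.7% (log2 fold change -0.30 ± 0.068 SE, adjusted p = 0.00174). HSPA5 encodes BiP, the ER form of HSP70 and a repressor of the 3 stress sensors (NCBI gene 3309, chromosome 9, 125234853 to 125241343). Its control libraries were far apart, at 641, 921 and 1188 CPM, and its celastrol libraries close together, at 601, 637 and 618 CPM. All celastrol libraries lay below all control libraries, by a narrow gap to control replicate 1, and the gene was not called (log2 fold change -0.57 ± 0.25 SE, adjusted p = 0.13). Without control replicate 1 HSPA5 was called lower (-0.77, adjusted p = 2.67e-05), as it was without that library and celastrol replicate 2 together (-0.79, adjusted p = 4.94e-05), and in the limma fit of log2 FPKM with pseudocount 0.1 (-0.48, adjusted p = 0.0465). The adjusted p ran from 2.67e-05 to 0.276 over 16 alternatives. HSPA5 had the widest spread of the 37 genes in controls, a coefficient of variation of 29.8%.

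Of 4 partners of BiP among the 37 genes, 3 fell, where 24.8% of all genes tested were called lower. The J-domain partners of BiP are not among these 4. Those with DNAJ names were placed in the wider list of other ER folding enzymes below, and SEC63 in the list of translocation and signal peptide removal. MANF, a secreted protein that slows nucleotide release from BiP (NCBI gene 7873, chromosome 3, 51385291 to 51389397), stood at 94.7, 120.0 and 118 CPM in controls and 65, 82.6 and 73.3 CPM with celastrol (log2 fold change -0.59 ± 0.10 SE, adjusted p = 0.000131). SIL1, a nucleotide exchange factor of BiP, stood at 34.1, 36.4 and 37.3 CPM in controls and 28.2, 24 and 26.4 CPM with celastrol (log2 fold change -0.46 ± 0.093 SE, adjusted p = 0.000592). Both were lower in all 3 celastrol libraries than in any control. SDF2L1, a lumenal protein that works with BiP and its J-domain partners, was very even in controls at 21, 20.9 and 21.3 CPM and lower with celastrol at 16.5, 15.1 and 14.4 CPM (log2 fold change -0.46 ± 0.11 SE, adjusted p = 0.00192). HYOU1, the large HSP70-like chaperone GRP170 and another exchange factor of BiP, was not called (log2 fold change -0.061 ± 0.058 SE, adjusted p = 0.405).

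**Figure D4:**
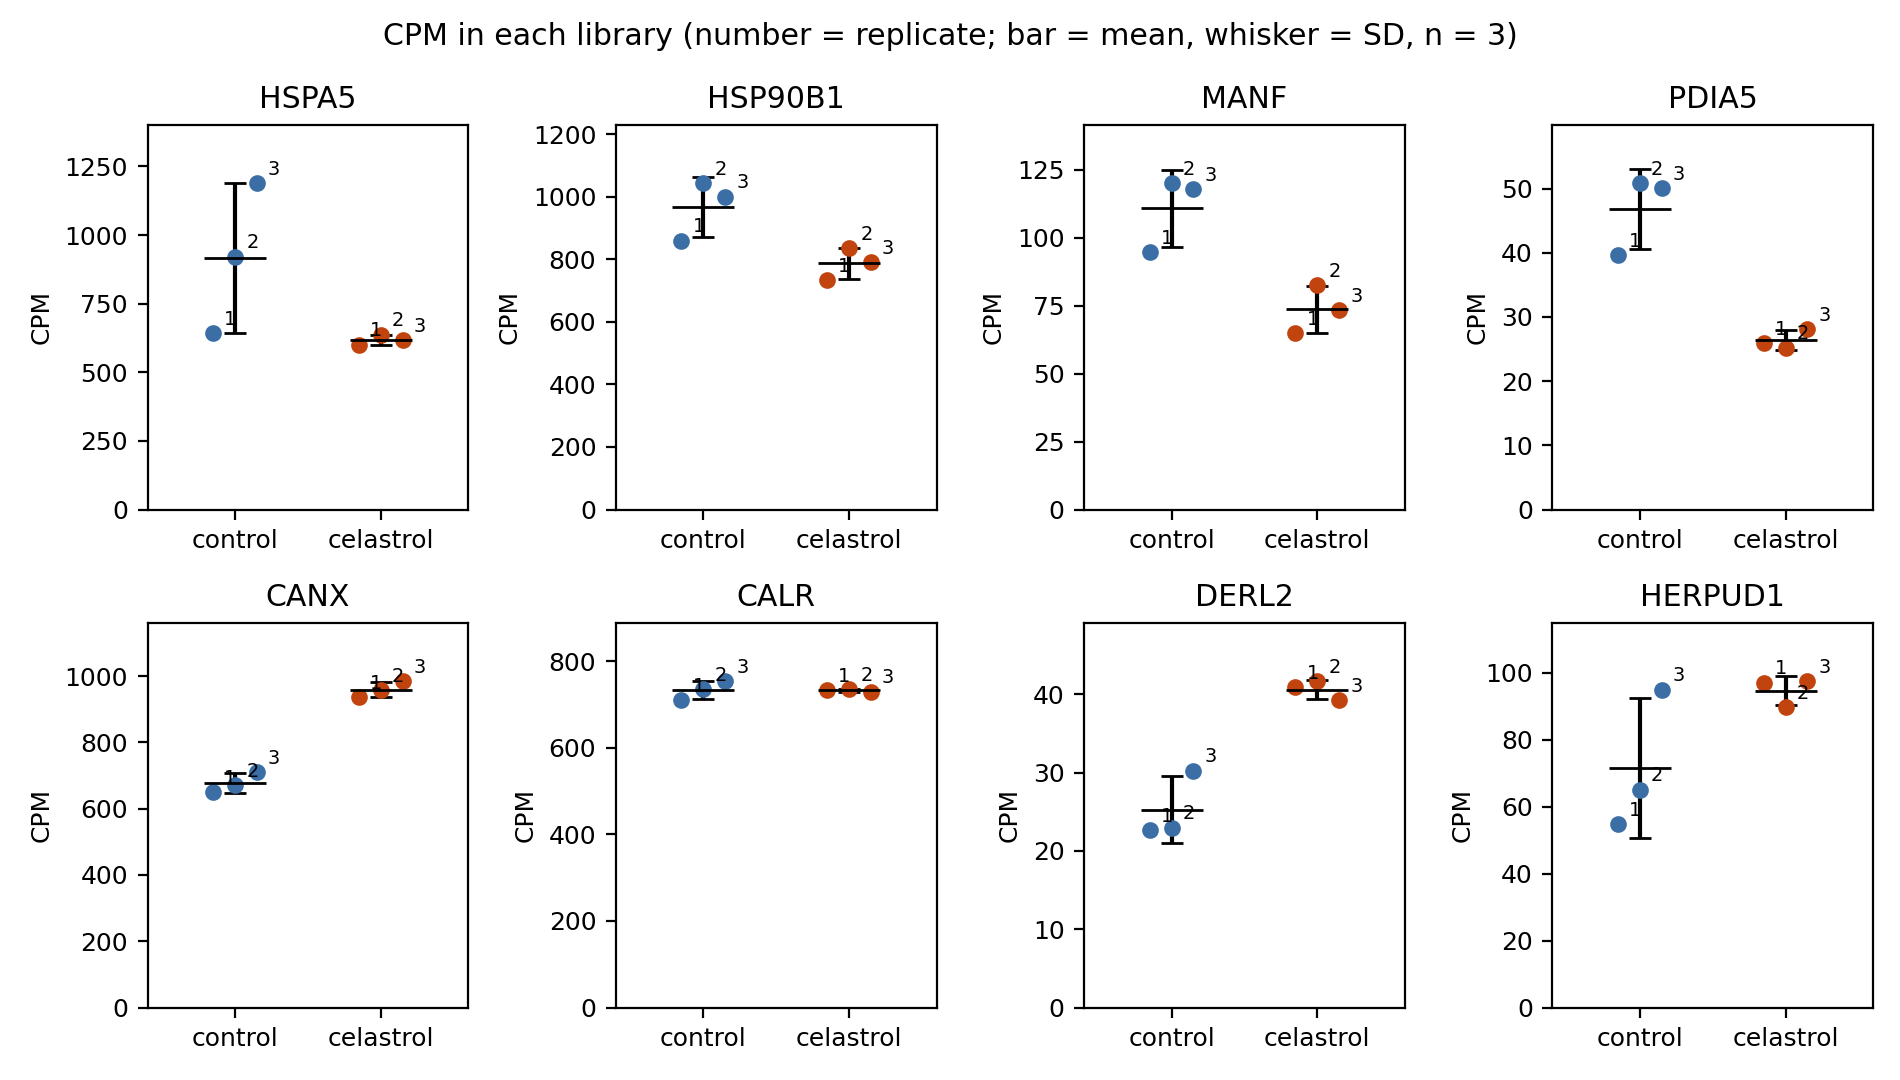
CPM in each library is plotted for 8 genes, with the replicate number beside each point, the mean as a bar and the SD as whiskers (n = 3). HSP90B1, MANF and PDIA5 are lower and CANX and DERL2 higher in every celastrol library, the CALR libraries lie close together in both groups, and HSPA5 and HERPUD1 show control libraries spread widely around the mean.

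The disulfide enzymes went in both directions, most of them down. PDIA5, a protein disulfide isomerase (NCBI gene 10954, chromosome 3, 123067025 to 123162104), stood at 39.6, 50.8 and 50.1 CPM in controls and 25.9, 25.2 and 28.1 CPM with celastrol and fell by 43.6%, on this scale more than any of the 37 genes but ERO1B (log2 fold change -0.83 ± 0.10 SE, adjusted p = 3.36e-06). PDIA6, an isomerase that also acts on IRE1, stood at 341, 387 and 376 CPM in controls and 292, 306 and 299.6 CPM with celastrol (log2 fold change -0.30 ± 0.060 SE, adjusted p = 0.000497). PDIA4, the isomerase ERp72, stood at 207, 219.7 and 230.3 CPM and 179, 189.9 and 183 CPM in the same order (log2 fold change -0.25 ± 0.061 SE, adjusted p = 0.00236). These 3 genes had no overlap between groups. P4HB, the founding protein disulfide isomerase and a subunit of the collagen prolyl hydroxylase, rose instead. It stood at 576, 528 and 548 CPM in controls and 596, 623 and 635 CPM with celastrol (log2 fold change 0.17 ± 0.054 SE, adjusted p = 0.0169). P4HB did not pass with celastrol replicate 2 left out (adjusted p = 0.0514), nor with celastrol replicate 3 left out (0.0998) or control replicate 2 left out (0.086), and the 16 alternatives spanned 0.00345 to 0.0998. The ratio of P4HB to PDIA5 in FPKM was 8.57 ± 1.61 in controls and 16.8 ± 0.800 with celastrol.

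The oxidases that recharge these isomerases both fell. ERO1A, the widely expressed oxidase, stood at 212, 207 and 210.1 CPM in controls and 179.6, 188 and 162 CPM with celastrol (log2 fold change -0.25 ± 0.064 SE, adjusted p = 0.00389). ERO1B, its paralog best known from secretory tissues such as pancreas (NCBI gene 56605, chromosome 1, 236215101 to 236281958), was read at 139 to 343 counts per library. It stood at 6.34, 8.35 and 8.91 CPM in controls and 3.46, 4.51 and 4.06 CPM with celastrol, the largest fall among the 37 genes on the scale of counts (log2 fold change -0.97 ± 0.18 SE, adjusted p = 0.000298). On the log2(FPKM + 1) scale, where the pseudocount exceeds its level, ERO1B was at -0.38 and PDIA5 at -0.74. Neither oxidase gene overlapped between groups. CRELD2, a lumenal protein with isomerase activity, was not called (log2 fold change 0.047 ± 0.11 SE, adjusted p = 0.743). FKBP14, a prolyl isomerase that acts on collagens, was higher in every celastrol library but was not called (log2 fold change 0.21 ± 0.087 SE, adjusted p = 0.0558). It was called under 6 of 16 alternatives, among them library size alone and limma-voom, in a range of adjusted p from 0.0234 to 0.291.

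SEC61B, a small subunit of the translocation channel, was the other folding gene to rise. Its libraries stood at 36, 30.3 and 36.1 CPM in controls and 42.4, 41.8 and 38.2 CPM with celastrol (log2 fold change 0.26 ± 0.093 SE, adjusted p = 0.0281). SEC61B did not pass with celastrol replicate 1 left out (adjusted p = 0.116), nor with celastrol replicate 2 left out (0.0823) or control replicate 2 left out (0.156), and the 16 alternatives spanned 0.00932 to 0.156. Without celastrol replicate 2 or control replicate 2 no folding gene was called higher, and without celastrol replicate 1 or 3 only 1 was. The count of folding genes lower was 9 or 10 whichever single library was left out.

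Summed over the 15 folding genes, the level was 3442, 3971 and 4242 CPM in control replicates 1, 2 and 3 and 3151, 3366 and 3260.4 CPM in celastrol replicates 1, 2 and 3. The gap to control replicate 1 was small. HSPA5 made up much of the spread, and without it the sum was 2801, 3050.2 and 3054 CPM in controls and 2550.2, 2729.6 and 2642 CPM with celastrol. In bulk RNA, fewer transcripts per cell and fewer cells that express a gene cannot be told apart.

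In the calnexin cycle, the genes of calnexin and of the folding sensor UGGT1 rose, while CALR and PDIA3 were not called. CANX, the membrane-bound lectin calnexin (NCBI gene 821, chromosome 5, 179678656 to 179731641), stood at 649.6, 672 and 710.0 CPM in controls and 937, 957 and 984 CPM with celastrol, a rise of 41.6% (log2 fold change 0.50 ± 0.053 SE, adjusted p = 6.33e-07). Its lowest celastrol library was far above its highest control library, and it was called under all 16 alternatives. UGGT1, the glucosyltransferase that returns unfolded glycoproteins to the cycle, stood at 129, 138 and 125 CPM and 156, 163 and 148 CPM in the same order (log2 fold change 0.25 ± 0.065 SE, adjusted p = 0.00419). CALR, the soluble counterpart of calnexin, stood at 710.5, 736 and 753 CPM in controls and 733, 736 and 730.0 CPM with celastrol, with all celastrol libraries inside the control range (log2 fold change -0.00072 ± 0.051 SE, adjusted p = 0.993). Its approximate 95% interval ran from -0.10 to 0.10 on the log2 scale. The ratio of CANX to CALR in FPKM was 0.295 ± 0.0053 in controls and 0.418 ± 0.0113 with celastrol. CANX and CALR both carry ERSE in the promoters printed above. PDIA3, the isomerase ERp57 that both lectins recruit, was not called (log2 fold change -0.080 ± 0.062 SE, adjusted p = 0.299), but was called lower without control replicate 1 (-0.15, adjusted p = 0.0303), in a range of adjusted p from 0.0193 to 0.772 over 16 alternatives.

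Among the degradation genes, DERL2, DERL1 and SELENOS rose, and so did EDEM1, described below. DERL2, a rhomboid-like protein that helps misfolded proteins leave the ER (NCBI gene 51009, chromosome 17, 5471254 to 5486817), stood at 22.7, 23 and 30.2 CPM in controls and 40.9, 41.6 and 39.2 CPM with celastrol, a rise of 60.5% (log2 fold change 0.68 ± 0.11 SE, adjusted p = 4.48e-05). DERL1, its paralog, stood at 47.3, 48.6 and 49.8 CPM and 59.8, 60.4 and 57.6 CPM in the same order (log2 fold change 0.29 ± 0.074 SE, adjusted p = 0.00373). SELENOS, a selenoprotein that ties VCP to the derlins, stood at 24, 25 and 28 CPM in controls and 31.6, 29.8 and 34 CPM with celastrol (log2 fold change 0.31 ± 0.10 SE, adjusted p = 0.0134). DERL2, DERL1 and SELENOS were each higher in every celastrol library than in any control library. SELENOS did not pass with celastrol replicate 3 left out (adjusted p = 0.0914), and the 16 alternatives spanned 0.00576 to 0.0914. The ratio of DERL2 to DERL1 in FPKM was 0.407 ± 0.0591 in controls and 0.536 ± 0.00279 with celastrol.

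HERPUD1, a ubiquitin-like membrane protein that gathers the ligase complex, is among the most responsive genes to ER stress in many cells. Its control libraries stood at 54.8, 65.1 and 94.9 CPM and its celastrol libraries at 96.9, 89.6 and 97.4 CPM. Celastrol replicate 2 lay below control replicate 3, so the groups overlapped and the gene was not called (log2 fold change 0.40 ± 0.21 SE, adjusted p = 0.165). HERPUD1 was called higher without control replicate 3 (0.66, adjusted p = 2.61e-05), and also in the limma fits of log2 FPKM with pseudocount 1 (adjusted p = 0.0397) or 0.1 (0.0362). The adjusted p ran from 2.61e-05 to 0.327 over 16 alternatives. Control replicate 3 was the highest control for both HSPA5 and HERPUD1, and control replicate 1 the lowest for both. The HERPUD1 promoter held, besides ERSE-II, a match to the C/EBP-ATF motif TGATGNAA on the other strand, which 4.46% of all genes with a promoter hold and which does not overlap ERSE-II.

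The genes of the ligase itself and of the extraction motor were not called. SEL1L, the adaptor of the ligase, had an estimate near 0 (log2 fold change -0.012 ± 0.065 SE, adjusted p = 0.893), and SYVN1, the ligase HRD1, was higher in all celastrol libraries but did not pass (log2 fold change 0.19 ± 0.085 SE, adjusted p = 0.0759). SYVN1 was called under 5 of 16 alternatives, in a range of adjusted p from 0.0138 to 0.300. VCP, the ATPase p97 that pulls proteins into the cytosol, stood at 497, 489 and 489 CPM in controls and 519.9, 553 and 519 CPM with celastrol and was not called (log2 fold change 0.11 ± 0.053 SE, adjusted p = 0.0923). It was called with library size alone and by limma on log2 FPKM with either pseudocount (range 0.0213 to 0.302 over 16 alternatives).

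Of the mannose-trimming and lectin genes that mark glycoproteins for removal, 1 of 5 rose, beside 23.6% of all genes. EDEM1, a mannosidase-like protein, stood at 225, 220.3 and 197 CPM in controls and 243, 260.4 and 233 CPM with celastrol (log2 fold change 0.20 ± 0.066 SE, adjusted p = 0.0185). EDEM1 did not pass with celastrol replicate 1 left out (adjusted p = 0.053), nor with celastrol replicate 2 left out (0.0967) or control replicate 3 left out (0.0955), and the 16 alternatives spanned 0.00386 to 0.0967. EDEM3 (-0.13, adjusted p = 0.192), OS9 (0.10, adjusted p = 0.168) and ERLEC1 (0.057, adjusted p = 0.63), of which the last 2 encode lectins, were not called. OS9 was higher in every celastrol library and passed in the limma fits of log2 FPKM with pseudocounts of 1 and 0.1 (adjusted p = 0.044 and 0.0444, in a range of 0.044 to 0.431). EDEM2, read at only 33 to 50 counts per library, was lower in every celastrol library but was not called (-0.26, adjusted p = 0.599). A change of that size was not detectable at this depth. Summed over the 12 degradation genes, the level was 1273, 1256 and 1288 CPM in controls and 1397, 1446 and 1390.3 CPM with celastrol, with no overlap. VCP, which was not called, was the largest part of this sum (means of 491 CPM in controls and 531 CPM with celastrol). The ratio of summed FPKM of degradation to folding genes was 0.225 ± 0.0171 in controls and 0.296 ± 0.00697 with celastrol. Its folding side includes HSPA5, also not called (means of 230 FPKM in controls and 160 FPKM with celastrol). Sum and ratio thus rest in part on genes that were not called and do not describe each gene of a class.

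None of the sensor genes was called, and all 6 overlapped between groups. ERN1, which encodes IRE1, stood at 22, 26.5 and 25.5 CPM in controls and 26.2, 22.9 and 27.7 CPM with celastrol (log2 fold change 0.054 ± 0.11 SE, adjusted p = 0.706). EIF2AK3, which encodes PERK, stood at 21.3, 18.9 and 21.9 CPM and 21.5, 19 and 19.9 CPM in the same order (log2 fold change -0.041 ± 0.11 SE, adjusted p = 0.781). ATF6, the sensor that is cut to a transcription factor, stood at 59, 59.9 and 70.1 CPM in controls and 62.6, 69.5 and 64.8 CPM with celastrol (log2 fold change 0.059 ± 0.081 SE, adjusted p = 0.577). Their celastrol libraries lay among the control libraries or close to them. XBP1, whose mRNA is spliced by IRE1 to encode an active transcription factor, stood at 113, 125 and 139 CPM in controls and 138, 130.0 and 145 CPM with celastrol (log2 fold change 0.13 ± 0.075 SE, adjusted p = 0.156). It was called higher only without control replicate 3 (0.21, adjusted p = 0.0337), in a range of adjusted p from 0.0337 to 0.491 over 16 alternatives. A gene count does not tell spliced from unspliced XBP1 mRNA, and sensor activity was not measured. MBTPS1 (0.076, adjusted p = 0.336) and MBTPS2 (0.15, adjusted p = 0.293), the proteases that cut ATF6 in the Golgi, were not called. Over the 6 genes the approximate 95% intervals lay between -0.25 and 0.37 on the log2 scale.

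The genes with an ERSE or ERSE-II match did not share a direction. Of the 11 genes, 4 were called lower (HSP90B1, PDIA6, ERO1B and SDF2L1), 1 was called higher (CANX) and 6 were not called (HSPA5, CALR, CRELD2, XBP1, HYOU1 and HERPUD1). Of the 23 genes whose promoter window held neither motif, 5 were called lower, 6 higher and 12 not called. Over all genes tested 24.8% were called lower and 23.6% higher, and no test of these groups was made. By class, ERSE was found in 5 of 14 folding genes with a promoter, 2 of 3 genes of glycosylation control, 0 of 11 degradation genes and 1 of 6 sensor genes, and ERSE-II in 2, 0, 1 and 0 of them, differences that were not tested. The element TGACGTGG, searched on both strands and bound by XBP1 and ATF6, was present in the promoters of VCP and HYOU1, against 0.927% of all genes, and in HYOU1 it overlaps the ERSE-II match that is not printed. None of the 99 genes with a promoter in the wider lists described next held ERSE or ERSE-II, and 8 held TGACGTGG.

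Other genes of ER protein handling, in 7 lists, give the setting of these 37 genes. These lists were chosen by name with earlier results of these data known, so they are not an independent background. Of 23 genes of translocation and signal peptide removal, 14 rose and 1 fell, against 23.6% and 24.8% of all genes. TRAM1, a protein beside the SEC61 channel, went from 58.5 ± 9.62 to 117 ± 10.4 CPM, a log2 fold change of 1.004 ± 0.10 SE (adjusted p = 1.46e-06), and SRPRB, a subunit of the signal recognition particle receptor, went from 73.9 ± 6.74 to 141 ± 4.94 CPM, a log2 fold change of 0.93 ± 0.073 SE (adjusted p = 2.37e-08). The member that fell was SEC61A2 (-1.05, adjusted p = 3.29e-05), the less abundant copy of the channel's main subunit, and without celastrol replicate 1 the number that rose was 10. Of 17 genes of oligosaccharyl transfer and glucose trimming, 8 rose and 0 fell (0 at an unadjusted p under 0.05 by edgeR, and 0 by DESeq2 and limma-voom). They include STT3A, a catalytic subunit of the oligosaccharyltransferase (0.56, adjusted p = 1.81e-06), and MAGT1, an oxidoreductase subunit of the same complex family (0.57, adjusted p = 9.4e-07). Their number higher was 5 without celastrol replicate 1, celastrol replicate 3 or control replicate 2, and 1 gene was lower without control replicate 1.

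Other ER folding enzymes, unlike the 15 described above, were more often higher, a difference that was not tested. Of 28 tested (FKBP2 did not pass the filter), 11 rose and 4 fell, beside 23.6% and 24.8% of all genes tested. MESD, a chaperone of lipoprotein receptors (0.62, adjusted p = 9.18e-06), and TMX1, a membrane-bound thioredoxin-like isomerase (0.61, adjusted p = 1.06e-05), rose, while the sulfhydryl oxidase gene QSOX1 (-0.65, adjusted p = 1.87e-07) and VKORC1, the vitamin K reductase (-0.28, adjusted p = 0.00249), fell. Of 29 further degradation genes, 12 rose and 6 fell. FOXRED2, an oxidoreductase that links glycoproteins to the degradation route, went from 12.6 ± 2.97 to 37 ± 4.74 CPM, a log2 fold change of 1.55 ± 0.14 SE (adjusted p = 4.45e-07). UBXN8, which recruits VCP to the ER (0.66, adjusted p = 0.00378), rose, and NGLY1, the cytosolic enzyme that strips glycans from retrieved proteins (-0.70, adjusted p = 1.84e-05), and FAM8A1, a partner of the ligase HRD1 (-0.62, adjusted p = 9.07e-05), fell.

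Transcripts that follow PERK through ATF4 included called genes on the higher side only, and ATF4 also receives signals from other kinases. Of 7 such genes 4 rose and 0 fell (0 at an unadjusted p under 0.05 by edgeR, and 0 by DESeq2 and limma-voom), with 1 lower without control replicate 1. The 2 with the largest change were CHAC1, a glutathione-degrading enzyme (2.43, adjusted p = 2.9e-06), and SESN2, a stress-induced regulator of amino acid signalling (1.31, adjusted p = 7.66e-07). Of 8 ER-phagy receptors, which guide ER fragments to autophagosomes, ATL3 rose (0.53, adjusted p = 3.98e-05) and CALCOCO1 fell (-0.40, adjusted p = 0.00127). Of 10 genes of ER calcium handling 2 rose, TMCO1 (0.88, adjusted p = 3.75e-08) and ITPR2 (0.35, adjusted p = 0.00386), and 5 fell, among them the calcium release channel ITPR1 (-0.76, adjusted p = 7.31e-05) and SELENOK (-0.42, adjusted p = 0.00328). Beside the counts of these short lists, 23.6% of all genes tested were called higher and 24.8% lower.

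**Figure D5:**
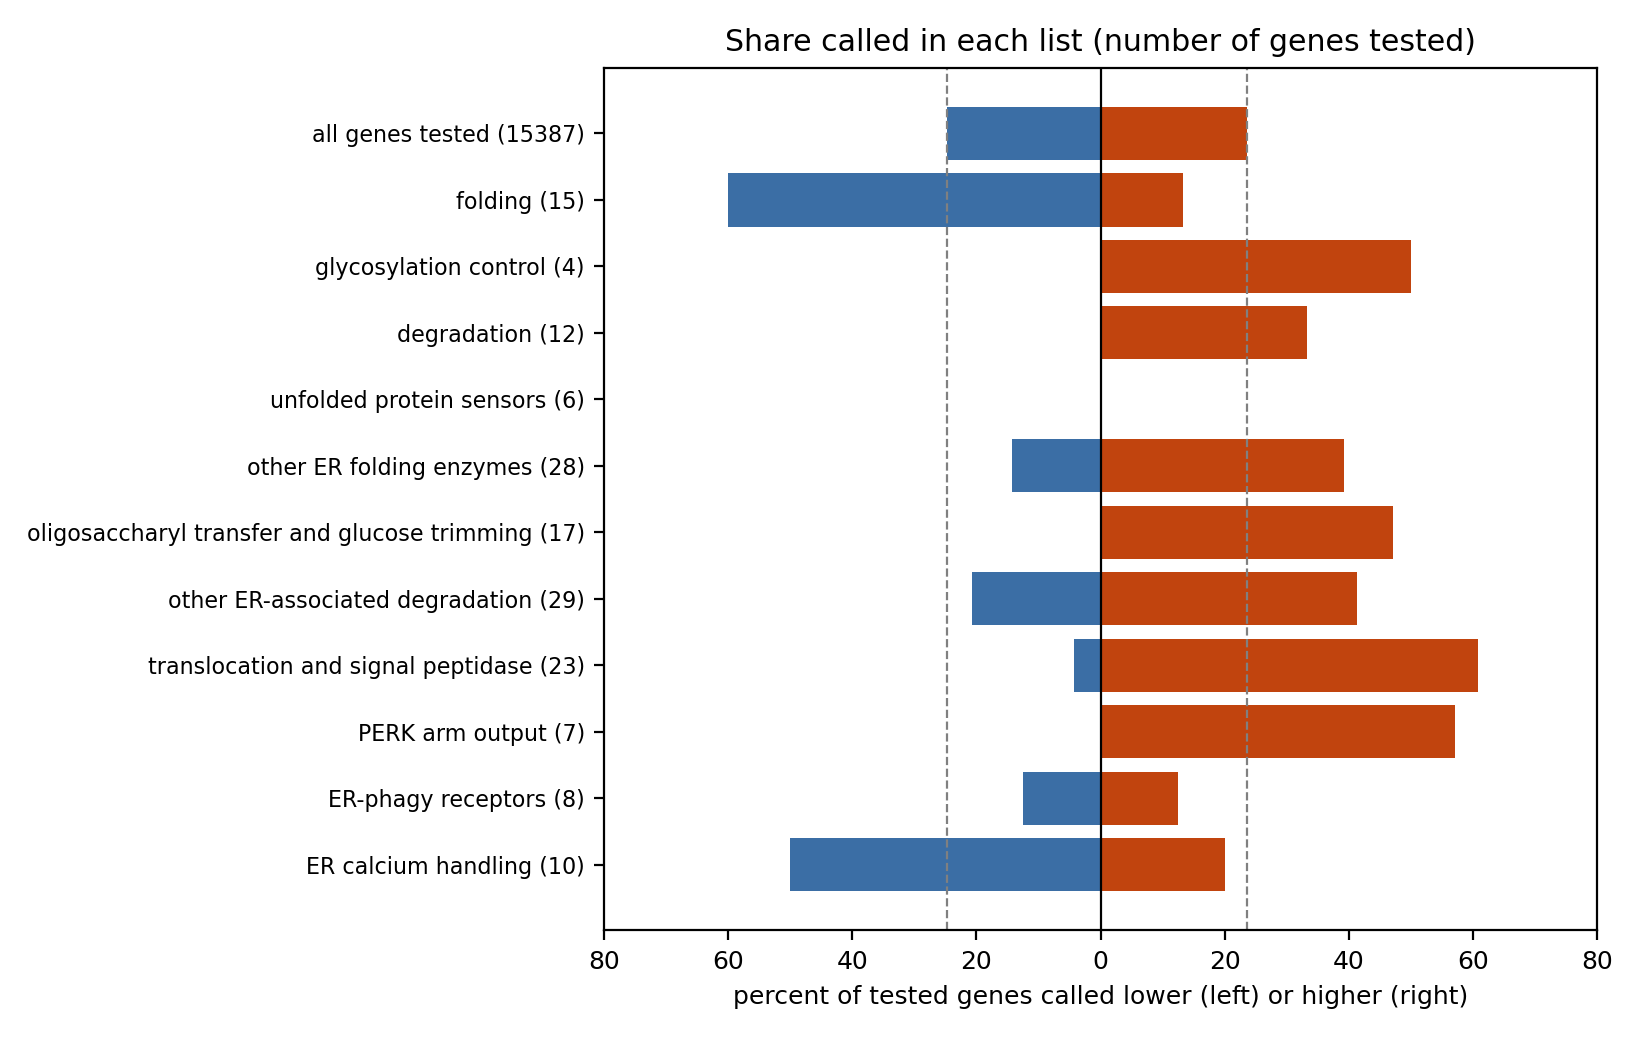
Bars give the percent of tested genes called lower (left, blue) and higher (right, red) for all genes, the 4 classes and the 7 wider lists, with the number tested in brackets and dashed lines at the shares over all genes. The folding class reaches 60% on the lower side, and the translocation list 60.9% on the higher side, beside 24.8% and 23.6% of all genes.

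The sources used here do not say how reads were shared between overlapping genes. At least 10% of the exon bases of 8 of the 37 genes (HYOU1, P4HB, PDIA6, ERO1A, CALR, PDIA3, OS9 and EIF2AK3) also lie in exons of a gene on the opposite strand in GENCODE release 29, and how much this adds to or takes from their counts was not measured. PDIA6 shares 29.7% with ATP6V1C2, which had at most 18 counts in a library, and PDIA3 shares 16.8% with ELL3, which had at most 104. A smaller overlap with a well-read gene is that of SYVN1 with MRPL49 (2.88%), which had up to 4136 counts.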

How the data were processed

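The 37 genes, their classes and the wider lists were chosen with earlier results of these data known. Poly(A) RNA was sequenced from 6 libraries, 3 per group, by a strand-marking protocol read from both ends, per the labels' protocols. The build hg38 and the tools edgeR, DESeq2, StringTie 2.1.6, HISAT2 2.2.1 and cutadapt 1.9 are named in the submitters' processing notes. The role of each, the annotation and the strand setting are not stated in the sources used here. The authors deposited a table of raw read counts by gene. The FPKM values deposited by the authors hold the same information, since 20198 of 20198 genes that could be checked gave 1 gene length from counts and FPKM whatever the library (within 1e-06), and they served for levels between genes and as an alternative.

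Counts were filtered with filterByExpr in edgeR 4.0.16 (15387 of 22481 genes kept), scaled by TMM, and compared by the quasi-likelihood test with robust dispersion in R 4.3.3. Adjusted p-values are this test's, by Benjamini-Hochberg over all genes tested, except where the text names another setting. A gene was called at an adjusted p under 0.05, and the SE was taken from the log2 fold change and the F statistic. Approximate intervals are the estimate ± 1.96 SE and can be narrower than the test implies. Those of HSPA5 (-1.05 to -0.084) and VCP (0.0069 to 0.21) leave out 0, where the quasi-likelihood test gave an unadjusted p of 0.077 and 0.051. CPM are TMM-scaled. The fits were tested on simulated data. All 37 genes are named, with every library's CPM for called genes and for 9 fixed genes. From each wider list the 2 largest changes per direction among called genes are named, where the log2 CPM reached 2. Results were recomputed with other filters and scalings, with DESeq2 1.42.0 and limma 3.58.1, on FPKM with pseudocounts of 1 and 0.1, with a replicate block, and with libraries left out. Coordinates and promoters come from RefSeq on GRCh38.p14 (hg38 is the same assembly), matched by NCBI gene ID or symbol. The limit for unread genes covers counting error alone, because no molecular identifiers were read.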

Additional observations from a re-analysis of the deposited data

How the results depend on the processing

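Of the 17 calls among the 37 genes, 12 held under every one of the 16 alternatives, and ERO1B held under the 15 that tested it, since it did not reach 10 CPM in 3 libraries. The other 4 (P4HB, SEC61B, EDEM1 and SELENOS) were lost when some single library was left out, and no call reversed. Of the 20 genes not called, 8 were called under at least 1 alternative. By limma on log2 FPKM with either pseudocount, 13 of the 37 genes and 8 degradation genes were higher, beside 8 and 4 in the main analysis. With pseudocounts of 1 and 0.1 these fits called 4007 and 4002 of all genes higher, and 3257 and 3250 lower. The main analysis called 3634 higher and 3815 lower. Without celastrol replicate 2 and control replicate 1, 1 gene of glycosylation control (PDIA3) was lower. Leaving out single libraries gave 5 to 10 of the 37 genes higher and 9 to 11 lower, 0 to 3 folding genes higher and 9 to 10 lower, 0 to 1 gene of glycosylation control lower (without control replicate 1), 3 to 5 degradation genes higher and 0 to 1 sensor gene higher (without control replicate 3). Over all genes it gave 2932 to 4043 higher and 3145 to 4067 lower. With library size alone the median of all genes moved by 0.041, and with it and by limma on log2 FPKM with pseudocounts of 1 and 0.1 CALR turned to 0.041, 0.041, 0.041, SEL1L to 0.029, 0.027, 0.029 and EIF2AK3 to 0.0012, 0.0015, 0.0019. Over the 7 settings that leave out 1 library, or celastrol replicate 2 and control replicate 1 together, the log2 fold change ran from -0.026 to 0.019 for CALR, -0.040 to 0.018 for SEL1L, -0.10 to 0.021 for EIF2AK3, -0.0066 to 0.11 for CRELD2, -0.082 to 0.14 for ERLEC1, -0.024 to 0.13 for ERN1 and -0.030 to 0.14 for ATF6. None of these 7 genes was called in any of these settings, and the cause of the turn in sign was not tested. Of 224 counts of the 7 wider lists, 8 moved by over 1.5 times.

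Well numbers are shared between the groups, but same-numbered wells deviated together only weakly (correlations of 0.058, 0.055 and 0.034), so they were not taken as pairs, although 6 of 6 libraries correlated best with their own number. With the replicate block, 10 of the 37 genes were higher and 9 lower, with 3 folding and 5 degradation genes higher, and 3831 genes higher and 3928 lower in all. FKBP14 (adjusted p = 0.0413) and HERPUD1 (0.0371) were called there and not in the main analysis.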

Other observations

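The following values use gene terms written in the deposited table and were looked up after the results above were seen. Of 129 other genes of the KEGG pathway for protein processing in the ER, 39 (30.2%) were higher and 21 (16.3%) lower. Their median log2 fold change was 0.071, and over all genes tested 23.6% were higher and 24.8% lower. Genes with the Gene Ontology term for the ER lumen and not the ER membrane, without the 37 genes, numbered 176, of which 35 were higher and 70 lower (39.8%, against 24.8% of all genes), with a median of -0.21. Those with the term for the ER membrane and not the lumen numbered 804, with a median of 0.034. Of these 241 (30%) were higher and 188 (23.4%) lower. Another 21 carried both terms, of which 5 were higher and 6 lower, with a median of -0.013. Among the 37 genes, 2 of 12 with the lumen term alone were higher and 4 lower. Of 14 with the membrane term alone, 5 were higher and 1 lower. Of 9 with both terms, among them HSPA5, HSP90B1, CALR and CANX, 1 was higher and 4 lower. The term for the lumen is also given to secreted cargo, and no test of these sets was made.

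Among lumen genes outside the 37 with a log2 CPM of at least 4, the 6 called genes with the largest change in each direction, a rule set after the values were seen, included both secreted cargo and resident proteins. CCN1, a secreted matrix-cell signalling protein, was at -2.60 (adjusted p = 0.000266), FAM20C, a kinase of secreted proteins, at -1.32 (1.47e-09), and TNC, the matrix protein tenascin C, at -1.01 (1.22e-08). PDGFA, a growth factor (-1.14, adjusted p = 1.81e-06), P4HA2, a catalytic subunit of the prolyl hydroxylase that uses P4HB (-0.97, adjusted p = 9.4e-07), and ANO8, a protein of ER contact sites (-0.92, adjusted p = 9.18e-06), were lower as well. On the higher side stood FOXRED2, already given above, EOGT, a glycosyltransferase (0.87, adjusted p = 9.73e-06), STC2, a secreted glycoprotein hormone (0.80, adjusted p = 0.00183), THBS1, thrombospondin (0.79, adjusted p = 4.13e-05), SERPINH1, the collagen chaperone (0.71, adjusted p = 3.58e-07), and CES2, a carboxylesterase (0.62, adjusted p = 0.000128). P4HB and P4HA2, whose products form 1 enzyme, lay on opposite sides in the main analysis. The rise of P4HB was small (0.17), and its call was lost with some single libraries left out. Other catalytic subunits of that enzyme are not given here.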
